A study of Mus musculus with 10 samples.

Results

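T cells read their targets through the T cell receptor, and the 40 genes described here encode that receptor's CD3 chains, the kinases and adaptors that act just behind it, the co-receptors beside it, and the factors and receptors that mark naive, memory, helper and regulatory T cells. The genes were taken as a list of names, and all 40 were found among the 17864 genes of the deposited count table. They were read in RNA from 10 whole tumors of 4T1, a mouse line of triple-negative breast cancer that grows in BALB/c mice. All 10 tumors were grown from 4T1 cells carrying Cas9. The 5 sgCon tumors came from cells with a control guide (sgControl) and the 5 sgTaz tumors from cells with a single guide against Taz, the Hippo pathway coactivator whose gene symbol is Wwtr1. The study's methods give 100000 4T1 cells per injection into mammary fat pad 4 of female mice aged 6 to 8 weeks, and they name both SCID and BALB/c hosts without saying which carried the sequenced tumors. SCID mice have no functional T or B cells of their own. The guide acted in the injected cells only, and the methods do not say whether the edited cells were a pool or a clone. The labels call the material tumor cells. However, the CD3 gamma, delta and epsilon chains, which only T lineage cells are known to make in quantity, were counted in every tumor. The RNA therefore came from host cells as well.

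The T cell receptor has no enzyme activity of its own. The kinase Lck, held by the co-receptors CD4 and CD8, phosphorylates the tails of the CD3 and CD247 chains, Zap70 binds those tails, and the adaptors Lat and Lcp2 (SLP-76) then pass the signal on. Naive and central memory T cells are known for Tcf7, Lef1, Il7r, S1pr1 and Klf2, which keep them quiescent and let them move between blood and lymphoid tissue. Regulatory T cells are known for Foxp3 and for high Il2ra, and they are common among the T cells of tumors.

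The libraries held 14753922 to 19595821 gene counts in the sgCon tumors and 12185383 to 18395558 in the sgTaz tumors. Levels are given as CPM, counts per 1000000 counts of the library after scaling for composition, and in the text the values of a group stand in the order of tumors 1 to 5, an order that carries no meaning of its own. Wwtr1 was at 192, 181, 114, 171 and 156 CPM in the sgCon and 86.6, 104, 109.9, 139 and 102 in the sgTaz tumors. In sgCon tumor 3 it lay inside the range of the sgTaz tumors and below sgTaz tumor 4. The Wwtr1 means were 163 ± 30.2 and 108 ± 19.2 CPM (SD, n = 5 each), with a log2 fold change of −0.59 and an edgeR adjusted p of 0.09604. These levels cannot measure the editing, because whole-tumor RNA also holds RNA of host cells, in which the guide did not act. The study reports the knockdown of Taz in the injected cell line by immunoblot. A pair of tumors stood apart for the T cell genes, sgCon tumor 3 with the highest level of the 10 in 39 of the 40 genes (21.2% of all genes tested) and sgTaz tumor 5 with the highest level of its group in 38 of 40 (22.4%). Counts of calls, group medians and some single genes are also given without sgTaz tumor 5 and without sgCon tumor 3.

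The genes of the CD3 gamma, delta and epsilon chains lie side by side on chromosome 9. In the GRCm38 build, Cd3g occupies chr9:44969572-44980431 on the minus strand and Cd3d chr9:44981786-44987339 on the plus strand, so they are transcribed away from each other from starts 1354 bases apart. Cd3e lies at chr9:44998740-45009627 on the minus strand, 11400 bases past the end of Cd3d. The 250 bases before the RefSeq start (assembly GRCm38.p6) are shown for these 3 genes, whose levels anchor the rest of the account, and for Lck at its upstream start, as the kinase that begins the signal. Each is written 5′ to 3′ on the strand of its gene. Capitals mark matches to 3 short motifs searched on both strands, AGGAAG for ETS factors, TGTGGT for RUNX factors and CTTTGA for TCF and LEF factors, none of which overlaps another in these windows.
Cd3g, chr9:44980432-44980681, minus strand: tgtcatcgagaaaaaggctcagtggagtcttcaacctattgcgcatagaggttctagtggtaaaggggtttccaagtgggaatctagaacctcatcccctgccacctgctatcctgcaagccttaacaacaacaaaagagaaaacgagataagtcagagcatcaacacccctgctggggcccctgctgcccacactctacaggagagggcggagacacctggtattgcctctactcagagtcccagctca
Cd3d, chr9:44981536-44981785, plus strand: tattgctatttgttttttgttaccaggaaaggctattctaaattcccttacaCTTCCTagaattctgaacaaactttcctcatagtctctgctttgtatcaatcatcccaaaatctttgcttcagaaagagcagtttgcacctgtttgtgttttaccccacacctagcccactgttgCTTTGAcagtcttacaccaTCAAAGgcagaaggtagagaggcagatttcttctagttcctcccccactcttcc
Cd3e, chr9:45009612-45009861, minus strand: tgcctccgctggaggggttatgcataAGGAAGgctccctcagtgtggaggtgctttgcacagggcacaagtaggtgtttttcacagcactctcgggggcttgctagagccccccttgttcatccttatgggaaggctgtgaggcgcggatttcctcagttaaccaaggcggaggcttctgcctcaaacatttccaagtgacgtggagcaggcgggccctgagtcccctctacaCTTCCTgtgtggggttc
Lck, chr4:129573642-129573891, minus strand: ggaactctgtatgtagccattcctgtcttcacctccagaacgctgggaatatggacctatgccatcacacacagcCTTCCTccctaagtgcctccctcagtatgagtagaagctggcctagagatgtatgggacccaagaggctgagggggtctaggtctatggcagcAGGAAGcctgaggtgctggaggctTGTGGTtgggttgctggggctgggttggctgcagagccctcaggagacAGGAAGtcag
The Cd3d window held 1 ETS and 2 TCF/LEF matches, the Cd3e window 2 ETS matches, the Lck window 3 ETS matches and 1 RUNX match, and the Cd3g window none of the 3 motifs. RefSeq windows were at hand for 27 of the 40 genes, 38 windows in all because some genes have several starts. The ETS motif was in 50% of these windows against 29.5% of all 32851 mouse windows, the TCF/LEF motif in 26.3% against 13.8%, and the RUNX motif in 10.5% against 14%. These shares describe letters in the windows and were not tested.

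Most T cell genes had lower mean levels in the sgTaz than in the sgCon tumors, but no gene of the 40 passed the edgeR test adjusted over all 14816 genes. The median log2 fold change over the 40 genes was −1.51, against −0.019 over all genes tested, and the fold change was below 0 for 38 of 40 (53% of all genes). With edgeR's quasi-likelihood test, 0 of 40 were lower at an adjusted p below 0.05, where the background share was 0%, and 0 of 40 were higher, where it was 0.00675%. At an unadjusted p below 0.05, 29 of the 40 were lower and 0 higher, against 11.9% and 9.86% of all genes tested. The 29 included every gene of the receptor complex, the surface group and the naive and memory group, 7 of 8 signaling genes, 1 of 6 helper genes and 2 of 7 regulatory and activation genes. Whether fewer T cells or less RNA per T cell lay behind a lower level cannot be told apart in RNA of whole tumors.

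The other tools and samples moved the number of calls. DESeq2, the tool of the study, called 14 of the 40 lower at an adjusted p below 0.05 (background 3.14%): Cd3d, Lck, Zap70, Lat, Txk, Cd4, Cd2, Cd27, Thy1, Bcl11b, Tcf7, Lef1, Il7r and Klf2. With limma-voom and sample quality weights 16 were called lower (background 5.8%), the same list without Zap70 and with Trat1, Skap1 and Ccr6. Without sgTaz tumor 5, edgeR called 6 lower (background 0.868%), which were Trat1, Lat, Txk, Lef1, Il7r and Ccr6, and at the unadjusted threshold 33 were lower (background 11.6%) and 1, Gata3, was higher (background 8.59%). Without sgCon tumor 3, the unadjusted count was 19 lower (background 9.73%) and the median log2 fold change −0.86, and 22 of the 40 moved up by over 1.5-fold against the value with all 10 tumors. Those 19 were 3 of 5 genes of the receptor complex (median −1.11), 5 of 8 signaling genes (−1.02), 5 of 7 surface genes (−1.20), 6 of 7 naive and memory genes (−1.53), 0 of 6 helper genes (0.21) and 0 of 7 regulatory and activation genes (0.04). With both tumors left out, 13 of the 36 genes that still passed the filter on low counts were lower at the adjusted threshold (background 0.918%), and at the unadjusted one 28 were lower (background 9.58%) and 1 higher (background 8.98%).

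**Figure D1:**
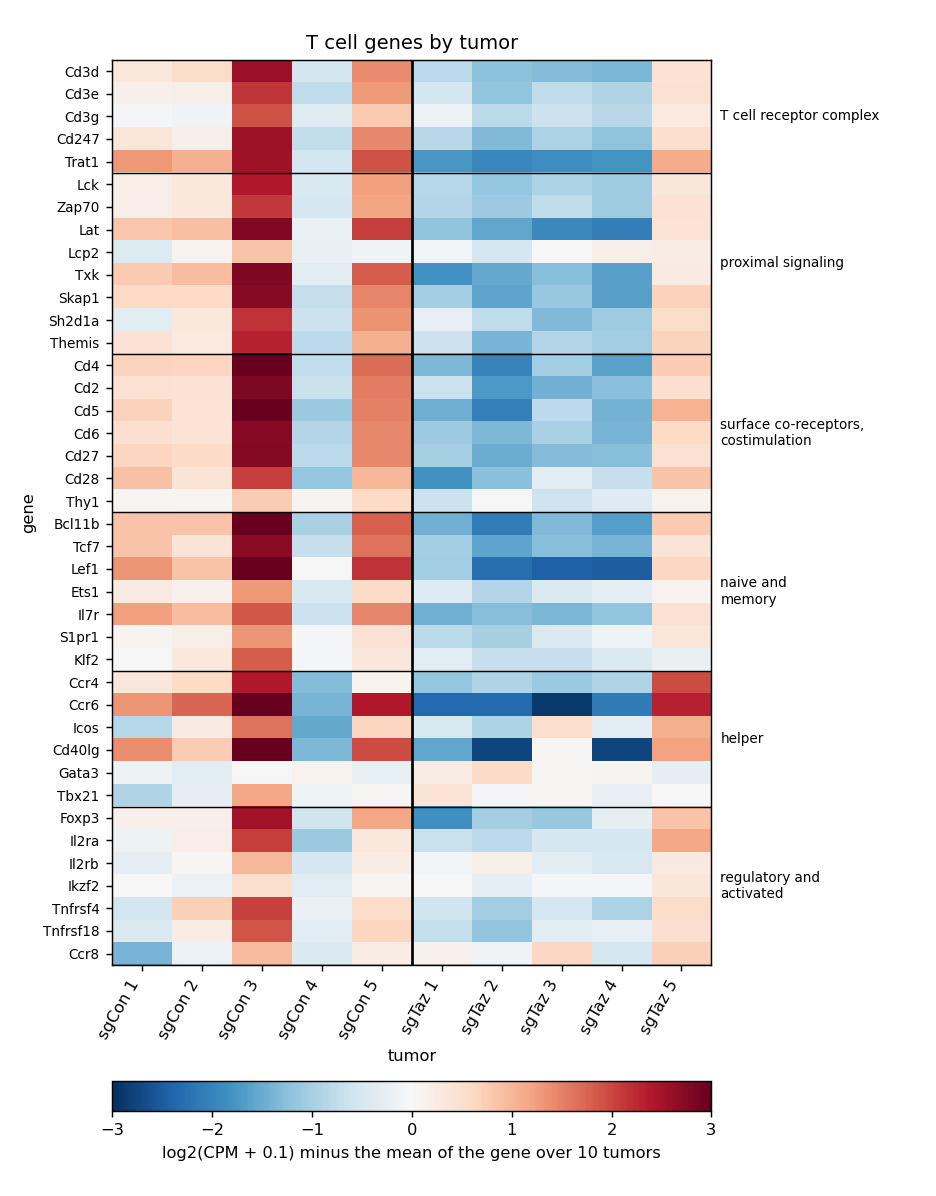
Level of each of the 40 T cell genes (rows, grouped by T cell state) in each of the 10 tumors (columns), as log2(CPM + 0.1) minus the mean of the gene over the tumors; red is above and blue below that mean. The sgCon tumor 3 column is the reddest in 39 of 40 rows, sgTaz tumors 1 to 4 are mostly blue in the upper 4 groups, and sgTaz tumor 5 is the highest of its group in 38 rows.

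All 5 genes of the receptor complex had lower mean levels in sgTaz tumors, each at an unadjusted p below 0.05. Cd3e, a CD3 chain that every receptor complex holds, was at 23.2, 23.6, 92.5, 12.3 and 50.7 CPM in the sgCon tumors and at 14.1, 9.23, 12.4, 11.2 and 29.03 in the sgTaz tumors. The ranges of the groups overlapped, since sgTaz tumors 1, 3 and 5 lay above sgCon tumor 4. The mean was 40.4 ± 32.4 in sgCon and 15.2 ± 7.93 in sgTaz tumors (SD, n = 5 each), the log2 fold change −1.41 (SE 0.51) and the edgeR adjusted p 0.156. The log2 fold change was −1.78 without sgTaz tumor 5 and −0.84 without sgCon tumor 3. Cd3d, the partner chain of CD3 epsilon, was at 19.1, 22.8, 92.3, 10.4 and 41.2 CPM in sgCon and 8.78, 6.52, 6.16, 5.91 and 20.9 in sgTaz tumors, and the 4 sgTaz tumors other than tumor 5 lay below every sgCon tumor. Its log2 fold change was −1.94 (SE 0.58, edgeR adjusted p 0.114).

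Cd3g, whose chain also pairs with CD3 epsilon, showed the smallest fold change of the complex. Its CPM was 26.9, 25.8, 105, 21.5 and 47.8 in sgCon and 24.6, 15.8, 17.8, 15.5 and 34.3 in sgTaz tumors, with a log2 fold change of −1.07 against −1.94 for the neighbouring Cd3d and of −0.49 without sgCon tumor 3. In 3 of the sgTaz tumors it lay below the lowest sgCon tumor. Cd247, the zeta chain that carries most of the phosphorylation sites, was at 15.2, 13.4, 69.4, 7.05 and 31.98 CPM in sgCon and 6.62, 4.65, 6.05, 5.02 and 16.6 in sgTaz tumors (log2 fold change −1.82, SE 0.59). Its exons share 3007 bases with Pou2f1 on the opposite strand, and no setting for strand is given in the sources used here, so some of its reads may belong to that gene. Trat1, an adaptor that holds the receptor complex at the surface, had the largest fold change of the 5, with 6.97, 5.96, 16.8, 1.83 and 10.7 CPM in sgCon and 0.764, 0.646, 0.697, 0.728 and 6.11 in sgTaz tumors. It was below 1 CPM in 4 of the sgTaz tumors and above it in all sgCon tumors. Its log2 fold change was −2.25 (SE 0.74, edgeR adjusted p 0.135) and −3.56 without sgTaz tumor 5 (adjusted p 0.04103, 0.0253 to 0.285 over all alternatives). The edgeR fit without sgCon tumor 3 gave −1.83 (adjusted p 0.2225).

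Behind the receptor, 7 of the 8 signaling genes followed the same pattern and Lcp2 did not. Lck was at 43.8, 47.4, 201, 27.8 and 90.1 CPM in the sgCon and 20.9, 16.9, 19.8, 18.1 and 48.6 in the sgTaz tumors (log2 fold change −1.72, SE 0.52, edgeR adjusted p 0.115). For Zap70 the levels were 13.3, 14.5, 50.3, 8.16 and 26.5 CPM in sgCon and 6.24, 5.36, 6.804, 5.42 and 15.6 in sgTaz tumors, with a log2 fold change of −1.51 (SE 0.49). In both kinases the 4 sgTaz tumors other than tumor 5 lay below every sgCon tumor, while tumor 5 reached the level of the lower sgCon tumors. Lat, the membrane adaptor that gathers the signaling proteins, was at 33.7, 35.4, 131, 16.5 and 79.9 CPM in sgCon and 8.15, 6.39, 4.93, 4.45 and 25.4 in sgTaz tumors. That was a log2 fold change of −2.59 (SE 0.63, edgeR adjusted p 0.09604), or −3.30 without sgTaz tumor 5 (adjusted p 0.04103, 0.00837 to 0.233 over all alternatives). For Lat without sgCon tumor 3 it was −2.06 (edgeR adjusted p 0.132).

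Txk, a Tec family kinase of T cells, had a fold change like that of Lat. Its levels were 9.01, 10.01, 36.9, 4.16 and 18.8 CPM in sgCon and 1.4, 1.74, 2.09, 1.62 and 6.18 in sgTaz tumors, a log2 fold change of −2.60 (SE 0.60, edgeR adjusted p 0.09604). Leaving out sgTaz tumor 5 gave −3.19 (adjusted p 0.0429, 0.00557 to 0.233 over all alternatives), and leaving out sgCon tumor 3 gave −1.997 (edgeR adjusted p 0.126). Skap1, an adaptor that links the receptor to integrins, had a log2 fold change of −2.04, Themis, a regulator of thymic selection, of −1.50 (−0.85 without sgCon tumor 3), and Sh2d1a (SAP), an adaptor of SLAM family receptors, of −1.42. Each of these 3 had an unadjusted p below 0.05, and Sh2d1a shares 1465 exon bases with Tenm1 on the opposite strand. Lcp2 was at 39.99, 56.9, 96.7, 45.4 and 49.7 CPM in sgCon and 50.2, 36.7, 53.6, 60.05 and 62.6 in sgTaz tumors. Its ranges overlapped almost fully, and its log2 fold change of −0.13 (SE 0.23, edgeR adjusted p 0.763) turned to 0.14 without sgCon tumor 3. Lcp2 is known to be made in myeloid cells and platelets too.

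Among the surface genes the co-receptor Cd4 had the largest fold change. It was at 32.1, 31.3, 160.5, 11.99 and 64.2 CPM in sgCon and 7.83, 4.91, 9.697, 6.55 and 33.98 in sgTaz tumors, and sgTaz tumors 1 to 4 lay below every sgCon tumor. The means were 60.04 ± 59.2 and 12.6 ± 12.1 CPM (SD, n = 5 each), and the log2 fold change was −2.26 (SE 0.71, edgeR adjusted p 0.125), or −3.04 without sgTaz tumor 5 and −1.46 without sgCon tumor 3. Cd5, an inhibitory receptor whose level tracks the strength of receptor signaling, was at 12.2, 10.1, 67.7, 3.44 and 21.6 CPM in sgCon and 2.67, 1.74, 4.34, 2.75 and 15.6 in sgTaz tumors (log2 fold change −2.09, SE 0.80, and −1.12 without sgCon tumor 3). Its sgTaz tumor 3 lay above sgCon tumor 4. Its neighbour Cd6, a related receptor on chromosome 19, had a log2 fold change of −1.97, and the adhesion receptor Cd2 one of −2.09.

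The costimulatory receptors Cd27 and Cd28 followed the pattern of the receptor genes. Cd27 CPM was 13.4, 12.8, 57.95, 4.83 and 23.5 in sgCon and 4.201, 2.97, 3.38, 3.48 and 11.7 in sgTaz tumors, and the log2 fold change was −2.13 (SE 0.62, edgeR adjusted p 0.1098). Cd28, the main costimulatory receptor of naive T cells, was low throughout, at 2.58, 1.85, 6.05, 0.555 and 2.81 CPM in sgCon and 0.318, 0.517, 1.07, 0.809 and 2.55 in sgTaz tumors. The log2 fold change, −1.39 (SE 0.63), rested on 5 to 97 counts per tumor. Thy1, a surface glycoprotein that fibroblasts and endothelium also make, had the smallest fold change of the group. It was at 147, 149, 243, 151 and 215 CPM in sgCon and 92.03, 143, 93.1, 110.1 and 155 in sgTaz tumors (log2 fold change −0.61, SE 0.19, edgeR adjusted p 0.124). In 4 sgTaz tumors it lay below the lowest sgCon tumor, and in sgTaz tumor 5 it lay inside the sgCon range.

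Lef1, of the naive and memory group, had the largest fold change of the 40 in the edgeR fit of all 10 tumors, while Ccr6 went further with limma-voom (−3.70, against −3.14 for Lef1), with the replicate block (−3.28 against −2.96) and without sgTaz tumor 5. This partner of beta-catenin, a factor of naive T cells and thymocytes, was at 28.3, 20.4, 105, 10.99 and 50.7 CPM in the sgCon and 5.41, 2.26, 1.98, 1.94 and 17.2 in the sgTaz tumors. In 4 of 5 sgTaz tumors it was below the lowest sgCon tumor, and in sgTaz tumor 5 it was above that tumor. The means of 43.01 ± 37.5 and 5.77 ± 6.58 CPM (SD, n = 5 each) gave a log2 fold change of −2.91 (SE 0.75, edgeR adjusted p 0.09604), that is, 7.499-fold lower. Without sgTaz tumor 5 the value was −3.88 (adjusted p 0.04103, 0.0128 to 0.233 over all alternatives), and without sgCon tumor 3 it was −2.25. Lef1 shares 1208 exon bases with the opposite-strand gene Gm43352. Tcf7, which encodes the related factor TCF-1, was at 58.8, 43.5, 212, 20.1 and 100.1 CPM in sgCon and 16.04, 10.8, 13.3, 12.2 and 42.9 in sgTaz tumors (log2 fold change −2.19, SE 0.60, edgeR adjusted p 0.101). Bcl11b, a factor that holds T cells to their lineage, had a log2 fold change of −2.48 (SE 0.76).

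Il7r, the receptor for the survival cytokine IL-7, was at 86.3, 69.9, 134, 23.6 and 102 CPM in sgCon and 13.6, 15.2, 14.1, 16.1 and 50.5 in sgTaz tumors. The log2 fold change was −1.93 (SE 0.48, edgeR adjusted p 0.09604), and without sgTaz tumor 5 it was −2.50 (adjusted p 0.04103, 0.0131 to 0.233 over all alternatives). Leaving out sgCon tumor 3 instead gave −1.68 (edgeR adjusted p 0.137). Klf2, a quiescence factor that drives S1pr1, was the only one of the 40 genes in which all 5 sgTaz tumors lay below every sgCon tumor (2.13% of all genes tested). Its levels were 39.8, 50.4, 141, 38.3 and 50.7 CPM in sgCon and 31.8, 24.99, 24.8, 29.8 and 34.2 in sgTaz tumors, and the log2 fold change was −1.14 (SE 0.34, edgeR adjusted p 0.113), or −0.62 without sgCon tumor 3. A further 18 of the 40 genes had exactly 4 sgTaz tumors below every sgCon tumor (7.3% of all genes tested). S1pr1, the receptor by which lymphocytes leave lymphoid tissue, was at 52.8, 56.3, 125.7, 48.7 and 67.3 CPM in sgCon and 28.3, 25.2, 37.2, 45.8 and 64.8 in sgTaz tumors (log2 fold change −0.80, SE 0.31). The broad lymphoid factor Ets1 was at 217, 199.7, 452, 134 and 271 CPM in sgCon and 139.9, 99.4, 135, 152 and 197 in sgTaz tumors (log2 fold change −0.82, SE 0.29). Klf2, S1pr1 and Ets1 had smaller fold changes than the other 4 genes of the group. Endothelial cells are known to make these 3 too, and their part in the fold changes was not tested.

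**Figure D2:**
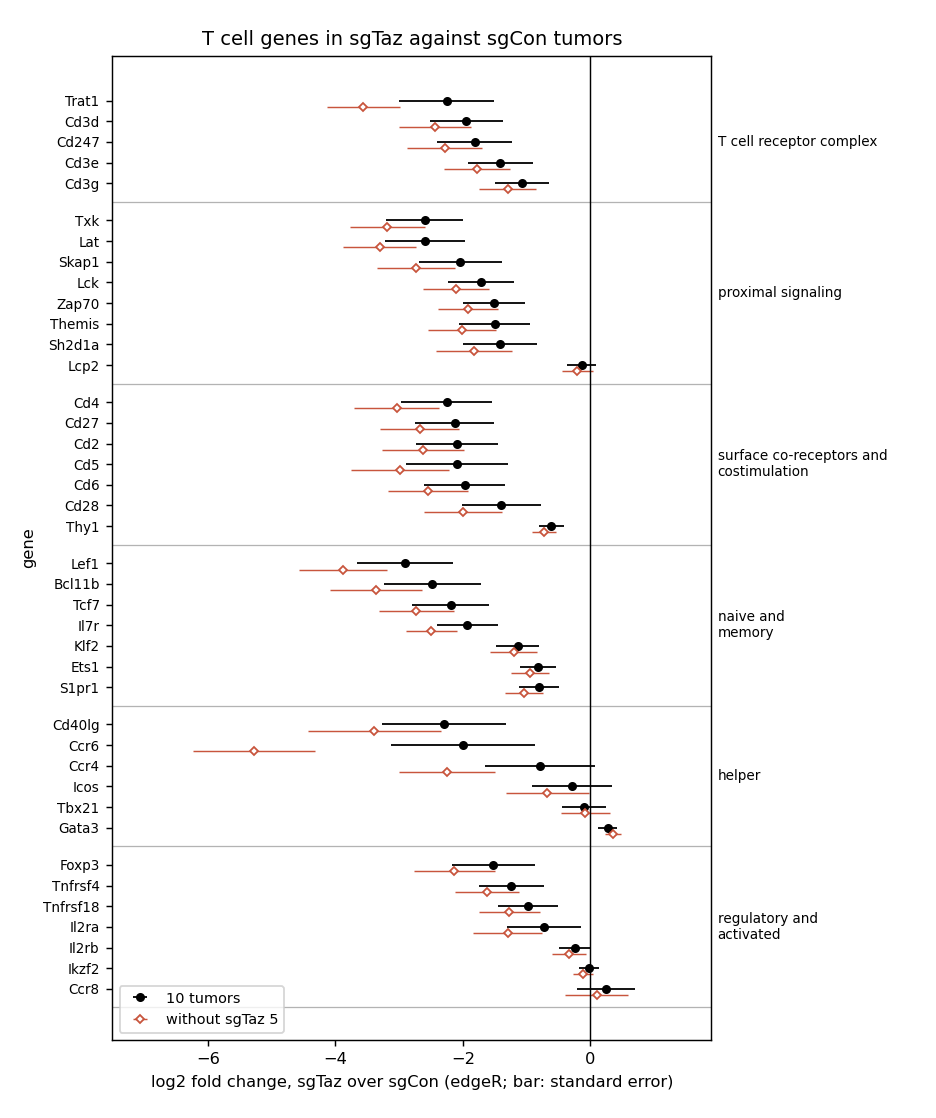
Log2 fold change of each gene in sgTaz over sgCon tumors from edgeR, by T cell state, with all 10 tumors (black dots) and without sgTaz tumor 5 (open diamonds); bars are standard errors and the vertical line marks no change. Values run from −2.91 for Lef1 to 0.27 for Gata3 with 10 tumors, and most genes of the upper 4 groups lie further from 0 without sgTaz tumor 5.

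The helper genes differed among themselves, with a median log2 fold change of −0.54. Cd40lg, the ligand by which helper T cells license B cells and dendritic cells, was at 1.68, 1.05, 5.43, 0.167 and 2.53 CPM in sgCon and 0.127, 0, 0.589, 0 and 1.46 in sgTaz tumors. No count of it was found in sgTaz tumors 2 and 4, where 3 counts would have been 0.191 and 0.246 CPM before the scaling for composition. Its fitted log2 fold change was −2.29 (SE 0.98, edgeR adjusted p 0.203), the only helper gene with an unadjusted p below 0.05. Ccr6, a chemokine receptor of Th17 cells and of B cells, split the sgTaz tumors. It was at 2.76, 3.75, 10.9, 0.333 and 5.89 CPM in sgCon and 0.127, 0.129, 0.0536, 0.162 and 5.53 in sgTaz tumors, that is, 1 or 2 counts in sgTaz tumors 1 to 4 and 76 counts in sgTaz tumor 5. The log2 fold change was −2.001 (SE 1.13, edgeR adjusted p 0.323) with that tumor and −5.28 without it (adjusted p 0.0429, 0.0429 to 0.518 over all alternatives). The edgeR fit without sgCon tumor 3 gave −1.42 for Ccr6 (adjusted p 0.518). Ccr4, a receptor of Th2 and regulatory T cells, had 4 or 5 counts in sgTaz tumors 1 to 4 and 41 in tumor 5, and its log2 fold change was −0.79 (SE 0.86).

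Icos, an inducible costimulator of follicular helper and regulatory T cells, was at 0.4204, 1.001, 2.81, 0.222 and 1.37 CPM in sgCon and 0.573, 0.388, 1.23, 0.647 and 1.89 in sgTaz tumors (log2 fold change −0.28, SE 0.63, edgeR adjusted p 0.821). The factors that direct the Th1 and Th2 lineages had overlapping ranges in the groups. Tbx21 (T-bet), also a factor of NK cells, was at 1.501, 2.35, 6.55, 2.61 and 2.94 CPM in sgCon and 3.88, 2.78, 2.95, 2.43 and 2.84 in sgTaz tumors, a log2 fold change of −0.10 (SE 0.35). Gata3 was at 75.9, 67.1, 83.1, 90.9 and 71.6 CPM in sgCon and 99.1, 125, 86.9, 88.8 and 69.3 in sgTaz tumors, and its log2 fold change of 0.27 (SE 0.14, edgeR adjusted p 0.291) was the highest of the 40 with all 10 tumors. Gata3 is also a factor of mammary luminal epithelium. At these depths and spreads the SEs of Icos and Tbx21 were too wide to show that their levels were equal.

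Regulatory and activation genes had a median log2 fold change of −0.73, and 2 of 7 were lower at the unadjusted threshold (11.9% of all genes tested). Without sgCon tumor 3 none of the 7 was lower at that threshold and the median was 0.04. Foxp3, the factor that defines regulatory T cells, was at 4.32, 4.36, 22.7, 2.55 and 8.83 CPM in sgCon and 1.02, 1.87, 1.71, 3.24 and 7.13 in sgTaz tumors. The log2 fold change was −1.52 (SE 0.65, edgeR adjusted p 0.206), and it was −0.74 without sgCon tumor 3. Its exons share 853 bases with Flicr on the same strand and 590 with Ccdc22 on the other. Il2ra, the IL-2 receptor alpha chain (CD25) of regulatory and activated T cells, was at 7.15, 9.16, 33.4, 3.61 and 9.86 CPM in sgCon and 4.901, 4.58, 5.52, 5.503 and 17.7 in sgTaz tumors (log2 fold change −0.73, SE 0.58, edgeR adjusted p 0.481), and without sgCon tumor 3 the value was 0.04. In sgTaz tumor 5 Il2ra was above every sgCon tumor but tumor 3.

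The other genes of this group included some with fold changes near 0. Il2rb, the IL-2 receptor beta chain shared with NK and CD8 T cells, was at 43.5, 53.8, 103, 36.97 and 60.9 CPM in sgCon and 49.6, 59.8, 42.1, 37.5 and 63.6 in sgTaz tumors (log2 fold change −0.24, SE 0.26). Ikzf2 (Helios), a factor of regulatory T cells, was at 34.95, 30.8, 48.3, 27.8 and 35.8 CPM in sgCon and 34.8, 28.3, 33.9, 33.9 and 43.95 in sgTaz tumors, with a log2 fold change of −0.02 (SE 0.16), the smallest in size of the 40 with all 10 tumors. In both genes the ranges of the groups overlapped. The costimulatory receptors Tnfrsf4 (OX40) and Tnfrsf18 (GITR), neighbours on chromosome 4 with 9551 bases between them, had log2 fold changes of −1.24 (SE 0.51) and −0.98 (SE 0.47), the latter −0.38 without sgCon tumor 3. Ccr8, a chemokine receptor of tumor regulatory T cells, was at 0.1802, 0.551, 1.31, 0.444 and 0.753 CPM in sgCon and 0.7001, 0.581, 1.02, 0.405 and 1.09 in sgTaz tumors, with 3 to 21 counts per tumor. Its log2 fold change of 0.25 (SE 0.46, edgeR adjusted p 0.7804) was smaller than its SE, and without sgCon tumor 3 it was 0.67.

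Per kilobase of exon, which allows genes to be compared, the 40 genes spanned a wide range. In the sgCon tumors Thy1 was highest at a mean of 60.5 CPM per kilobase, followed by Klf2 at 34.7, Tcf7 at 33.1, Ets1 at 30.1 and Lck at 27.98. Icos at 0.339, Cd28 at 0.452 and Ccr4 at 0.459 were lowest. In the sgTaz tumors Thy1 at 39.6 and Gata3 at 23.6 led, and Lck was at 8.49. Klf2, Tcf7, Ets1 and Lck differed from each other by less than the SD between sgCon tumors.

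Ratios within a tumor ask whether a state gene moved apart from Cd3e, 1 of the CD3 chains, in the same tumor. The chains themselves differed in log2 fold change, at −1.07 for Cd3g, −1.41 for Cd3e, −1.82 for Cd247 and −1.94 for Cd3d. A ratio therefore depends on the chain taken as reference. Apart from Cd3e, only the mean of 4 CD3 chains was used. The log2 fold changes of Il7r (−1.93) and Cd4 (−2.26) lay nearer to that of Cd3d than to that of Cd3e. Their ratios to Cd3d were not tested, so a shift apart from Cd3e need not be a shift apart from the other chains. For 6 log2 ratios to Cd3e the 5 sgTaz tumors were set against the 5 sgCon tumors in a permutation test, exact and two-sided, whose smallest possible p is 0.00794. Lef1 relative to Cd3e was −0.21 to 0.29 in the sgCon tumors and −2.58 to −0.75 in the sgTaz tumors, with no overlap. The difference was −1.84 (SE 0.36; exact p 0.00794, adjusted over the 6 ratios 0.0381). Cd4 relative to Cd3e was −0.03 to 0.79 in sgCon and −0.90 to 0.23 in sgTaz tumors, a difference of −0.92 (SE 0.25; exact permutation p 0.0159, adjusted 0.0381). Only sgTaz tumor 5 overlapped the sgCon range. Il7r relative to Cd3e differed by −0.76 (SE 0.29; exact permutation p 0.0317, adjusted 0.0381), with 3 of 5 sgTaz tumors below every sgCon tumor.

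Other state genes were higher relative to Cd3e or did not separate. Cd8a, the co-receptor of cytotoxic T cells and no member of the list, had a ratio of 0.42 to 1.63 in sgCon and 1.19 to 2.10 in sgTaz tumors. The difference was 0.78 (SE 0.26; exact permutation p 0.0317, adjusted 0.0381). Cd8b1, the partner chain of Cd8a in the CD8 receptor of most T cells, did not separate. It was at 19.4, 18.9, 60.5, 10.5 and 33.01 CPM in sgCon and 12.3, 7.49, 9.59, 7.77 and 22.6 in sgTaz tumors (log2 fold change −1.25, SE 0.46). Its ratio to Cd3e, computed after its values were seen, was −0.62 to −0.22 in sgCon and −0.53 to −0.19 in sgTaz tumors, a difference of 0.058 (SE 0.103; exact permutation p 0.603, or 0.690 adjusted with Cd8b1 in place of Cd8a). Il2ra relative to Cd3e was −2.35 to −1.35 in sgCon and −1.498 to −0.71 in sgTaz tumors, a difference of 0.64 (SE 0.21; exact permutation p 0.0238, adjusted 0.0381), and 4 of 5 sgTaz tumors lay above every sgCon tumor. Foxp3 relative to Cd3e was −2.50 to −2.02 in sgCon and −3.63 to −1.76 in sgTaz tumors, and the difference of −0.17 (SE 0.34; exact permutation p 0.690, adjusted 0.690) lay within the spread. These adjusted p-values sit close to the threshold, and leaving out any of sgCon tumors 1, 2 or 5 moved each of the 5 that passed above it (0.0635 to 0.0762). Leaving out sgTaz tumor 2, 3 or 4 did the same for all but the Lef1 ratio (0.0595 to 0.0857), sgTaz tumor 1 for Cd8a and Il7r (0.0833 and 0.0857), sgCon tumor 3 for Cd8a (0.0667) and sgTaz tumor 5 for Il2ra (0.0571). Over all alternatives the highest adjusted p was 0.0938 for the Cd4, Il2ra and Lef1 ratios, 0.105 for Il7r and, Cd8b1 apart, 0.15 for Cd8a, while the differences kept their signs.

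**Figure D3:**
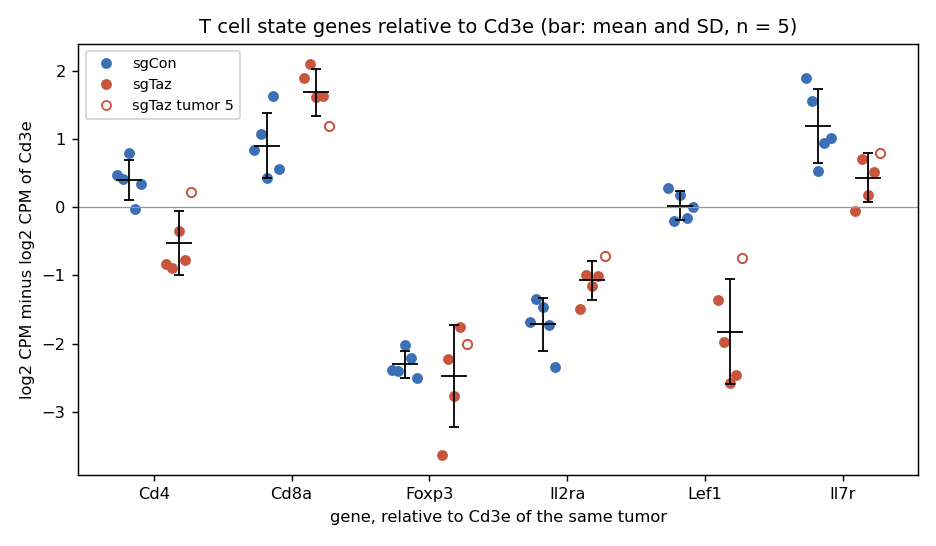
Log2 CPM of 6 T cell state genes minus log2 CPM of Cd3e in the same tumor, for 5 sgCon (blue) and 5 sgTaz (red) tumors, with the mean and SD of each group; sgTaz tumor 5 is the open circle. The Lef1 ratio is below every sgCon tumor in all 5 sgTaz tumors, the Cd4 ratio in 4, and the Foxp3 ratios overlap.

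A wider list of 30 genes, mostly of the T cell receptor pathway, was read beside the members. It also held Cd40, Icosl and Cd80, which are not genes of that pathway. Of these 30, 0 passed the adjusted threshold in edgeR, 17 were lower and 0 higher at an unadjusted p below 0.05 (11.9% and 9.86% of all genes tested), and the median log2 fold change was −0.87. DESeq2 called 13 of them lower at its adjusted threshold (background 3.14%). Icosl was among the lower genes in both counts, and Cd40 and Cd80 were in neither. The T cell adaptors and kinases Sit1 (−2.51), Lax1 (−2.48), Grap2 (−2.18) and Prkcq (−2.10) had log2 fold changes like those of Lat and Lck, and the chromatin organizer Satb1 had the lowest at −2.87. Among the others, Icosl, the ligand of ICOS, was at −1.24, the adaptor Pag1 at −0.87, its partner kinase Csk at −0.35 and the phospholipase Plcg1 at −0.15, and Nfatc3 was closest to 0 at −0.08. The phosphatase Ptprc (CD45), which all white blood cells carry, had a log2 fold change of −0.86.

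The summed markers of B cells and of lymph node stroma ranked the sgCon tumors in the same order as the receptor complex genes. All of these sums were highest of the sgTaz group in tumor 5. Among sgTaz tumors 1 to 4 the orders differed. There the receptor complex sum was highest in sgTaz tumor 1 (54.9 CPM), where the B cell sum was lowest (15.4 CPM). The summed CPM of the 5 receptor complex genes was 53.1 to 375.6 in the sgCon tumors, 36.8 to 54.9 in sgTaz tumors 1 to 4 and 107.0 in sgTaz tumor 5. The 10 B cell genes summed to 93.9 to 1174 CPM in sgCon tumors, 15.4 to 36.2 in sgTaz tumors 1 to 4 and 278.2 in sgTaz tumor 5. All 10 had a log2 fold change below 0 (53% of all genes tested). Ms4a1, Blk, Fcer2a and Cr2, which mark mature B cells, were at 0 counts in at least 1 of the sgTaz tumors. The 8 genes that mark stroma and high endothelium of lymph nodes summed to 75.1 to 815.8 CPM in sgCon tumors, 35.1 to 66.0 in sgTaz tumors 1 to 4 and 475.5 in sgTaz tumor 5. Glycam1, a ligand of high endothelial venules, was at 75.5, 72.7, 298, 19.3 and 67.8 CPM in sgCon and 0, 0, 0, 0.243 and 237 in sgTaz tumors. Enpp2 (autotaxin), which other cells are known to make as well, was at 29.7, 50.4, 111, 38.1 and 40.1 CPM in sgCon and 46.7, 32.3, 50.6, 56.2 and 120.2 in sgTaz tumors (log2 fold change 0.18, SE 0.40), highest of the 10 in sgTaz tumor 5. It made up most of the sum of the list in sgTaz tumors 1 to 4. Ccl19, Glycam1, Madcam1 and Chst4 were at 0 counts in at least 1 of the sgTaz tumors. The part of such tissue in the T cell results was not tested.

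The sums of the other marker lists overlapped between the groups. The 8 CD8 and cytotoxic genes summed to 96.4 to 296.4 CPM in sgCon and 102.5 to 184.2 in sgTaz tumors, again highest in sgCon tumor 3 and sgTaz tumor 5. They moved in both directions. At an unadjusted p below 0.05 in edgeR, 1 was lower (Cd8b1) and 1 higher (Gzmb), against 11.9% and 9.86% of all genes tested. Gzmb, a granzyme of cytotoxic cells, had a log2 fold change of 0.94 and was called higher by DESeq2 (background 2.96%). The 5 NK cell genes in the table summed to 11.4 to 24.5 and 16.7 to 25.5 CPM. The 4 that passed the filter had a median log2 fold change of 0.58, with 1 of them below 0. At an unadjusted p below 0.05, 2 were higher (9.86% of all genes tested). At the adjusted threshold edgeR called 0 NK cell genes higher, DESeq2 1 (background 2.96%) and limma-voom 1 (background 4.63%). The 6 macrophage genes summed to 627.3 to 1471 and 1250.0 to 1723 CPM. All 6 had a log2 fold change above 0, where 53% of all genes tested were below 0. At an unadjusted p below 0.05, 4 of them were higher (9.86% of all genes tested). At the adjusted threshold edgeR called 0 of these 6 higher, DESeq2 3 (background 2.96%) and limma-voom 4 (background 4.63%). Endothelial genes summed to 409.8 to 545.3 and 327.9 to 648.3 CPM, fibroblast genes to 1194 to 3280.0 and 1304 to 2814 CPM, and epithelial genes of 4T1 cells to 2029 to 4759 and 1568 to 3737 CPM. Of the 6 fibroblast genes, 2 had a log2 fold change below 0 and 2 were higher at an unadjusted p below 0.05 (9.86% of all genes tested). At the adjusted threshold edgeR called 0 fibroblast genes higher, DESeq2 1 (background 2.96%) and limma-voom 1 (background 4.63%). All 6 epithelial genes had a log2 fold change below 0 (53% of all genes tested), 3 of them at an unadjusted p below 0.05 (11.9%). Leaving out 1 tumor moved that count between 0, as without sgCon tumor 1, and 6, without sgTaz tumor 2. With the replicate block it was 0. The part of macrophages, NK cells, fibroblasts and tumor cells in the T cell results was not tested.

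**Figure D4:**
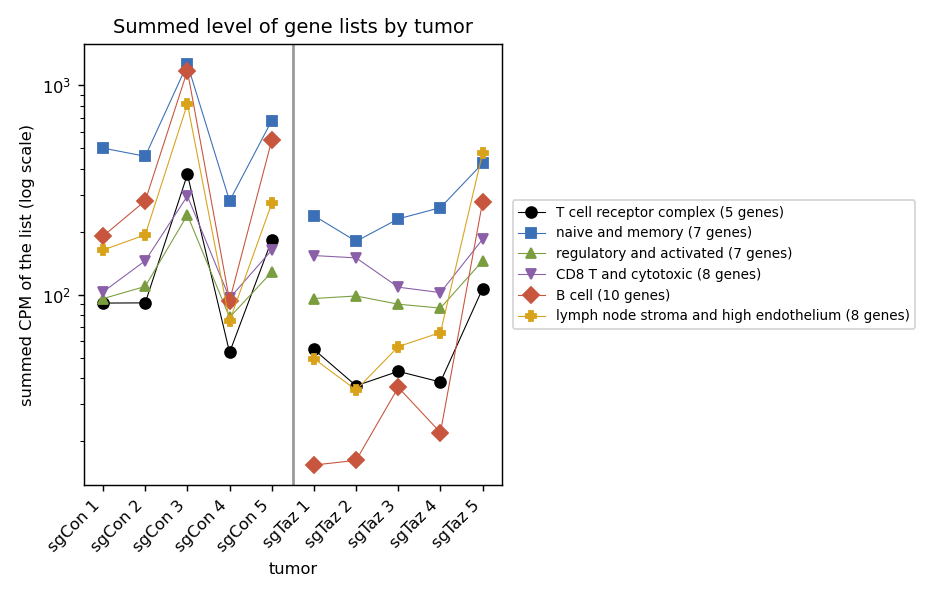
Summed CPM (log scale) of 3 groups of the T cell genes and 3 lists of marker genes in each of the 10 tumors; lines only join the points of a list. The B cell and lymph node lists have their highest sgCon value in tumor 3, their lowest in tumor 4 and their highest sgTaz value in tumor 5, as the receptor complex list does, whereas the CD8 and cytotoxic list overlaps between the groups.

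The order of the tumors was much the same from gene to gene. The lowest level of the sgCon group was in sgCon tumor 4 for 33 of the 40 genes (26% of all genes tested). Sums over the naive and memory genes were 280.6 CPM in sgCon tumor 4 and 424.4 in sgTaz tumor 5, while sgTaz tumors 1 to 4 had 180.1 to 260.7. For the regulatory and activation genes the sum was 78.0 CPM in sgCon tumor 4 and 86.4 to 98.7 in sgTaz tumors 1 to 4. Il2rb and Ikzf2 made up most of that sum, and Foxp3 was lower in sgTaz tumors 1, 2 and 3 than in sgCon tumor 4.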

How the data were processed

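Whole-tumor RNA of 5 sgCon and 5 sgTaz 4T1 tumors was sequenced on an Illumina HiSeq instrument from 1 µg of total RNA. The deposited values are raw read counts per gene, which the authors made with the STAR two-pass aligner on GRCm38 with GENCODE annotation, RSeQC and featureCounts of Subread; tool versions and the strand setting are not given in the sources used here. A further 5 columns of the table, whose names match none of the samples described, were not used. Of 17864 gene IDs, 17860 were matched to a symbol, and 14 of the 40 genes described share exon bases with another gene.

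Counts were tested with edgeR 4.0.16 (R 4.3.3) by the quasi-likelihood test with TMM scaling and filterByExpr by group, with Benjamini-Hochberg adjustment over the 14816 genes tested; 3048 genes fell below the filter and all 40 genes passed it. CPM were scaled with TMM. DESeq2 1.42.0, limma 3.58.1 (voom with sample quality weights), other scalings and filters, leaving out each tumor and a replicate block were alternatives, and leaving out sgCon tumor 3 and sgTaz tumor 5 together and the Cd8b1 ratio were added after seeing the data. Ratios used log2 CPM with a prior count of 2 and an exact two-sided permutation test over 252 arrangements, adjusted over 6 ratios (scipy 1.17.1). The fits were tested on simulated data. Promoter windows come from RefSeq and drawings from matplotlib 3.10.9.

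Tumors were grouped by their titles. The 40 genes, their grouping by T cell state and the marker lists were chosen with earlier results of these data known. All 40 genes are described, with values in every tumor for a chosen 28 of them and for the genes of the highest and lowest fold change in each state. Cd3d, Glycam1, Cd8b1, Enpp2 and Gzmb were named after their values were seen. Other genes come from a list of 30 genes, mostly of the receptor pathway, the marker lists and Wwtr1. The labels do not say more of the tumors than their number. The p-values set the difference between the groups against the spread between these tumors. The sgTaz tumors all came from cells with the same guide. An effect of Taz loss and any other difference between the injected sgCon and sgTaz cells therefore cannot be told apart. Intervals of 3 counts as a floor cover counting error only.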

Additional observations from a re-analysis of the deposited data

Results flagged for a closer look

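In 15 of 92 groups of 5 tumors that were checked, 1 tumor lay far from the other 4 by Dixon's gap criterion; chance alone would give about 4.6, since 1 in 20 groups passes it. In 14 of the 15 the tumor was sgTaz tumor 5, and in each it lay above the other sgTaz tumors. As log2 CPM (prior count 2), Ccr6 was at 2.50 in that tumor and −2.49 to −1.81 in the others, Ccr4 at 1.64 against −1.40 to −1.16, and Trat1 at 2.64 against −0.38 to −0.17. Among the receptor and signaling genes it was at 4.06 for Cd247, 5.61 for Lck, 3.98 for Zap70, 2.66 for Txk and 3.88 for Skap1. For the surface receptors Cd6 and Cd27 it was at 4.27 and 3.57. In the naive and memory group Bcl11b was at 4.16, Tcf7 at 5.43 and Il7r at 5.66, and Il2ra was at 4.15. These genes share their tumors and are not independent of each other. The remaining case was Klf2, at 7.14 in sgCon tumor 3 and 5.26 to 5.67 in the other sgCon tumors. The summed levels of the B cell and lymph node stroma markers were also highest of their group in these 2 tumors, and their part in these values was not tested.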

How the results depend on the processing

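The number of the 40 T cell genes lower in sgTaz tumors at an edgeR adjusted p below 0.05 was 0 with all 10 tumors, 14 with DESeq2, 16 with limma-voom, 13 without sgCon tumor 3 and sgTaz tumor 5, and 0 to 6 when 1 tumor was left out, with 6 only without sgTaz tumor 5; RLE and upper-quartile scaling, no filter, a filter of 10 counts in every tumor and the replicate block gave 0. At an unadjusted p below 0.05 the count was 19 to 33 lower and 0 to 1 higher with 1 tumor left out (19 without sgCon tumor 3, 33 without sgTaz tumor 5), and 1 was higher without both tumors. The median log2 fold change was −2.06 to −0.86 over the alternatives. With 1 tumor left out the ratios to Cd3e were −1.11 to −0.82 for Cd4, 0.66 to 0.96 for Cd8a, −0.35 to 0.11 for Foxp3 (positive only without sgTaz tumor 1), 0.48 to 0.75 for Il2ra, −2.11 to −1.65 for Lef1 and −0.92 to −0.58 for Il7r. Against the mean of 4 CD3 chains Il7r was −0.61 and missed the threshold, and with Cd8b1 in place of Cd8a the CD8 ratio was 0.058 and missed it. Some fold changes turned in sign. With all 10 tumors they ran from −0.79 for Ccr4 and −0.73 for Il2ra to −0.02 for Ikzf2. The genes were Lcp2 (0.061 with limma-voom, 0.077 without both tumors, −0.24 to 0.14 with 1 left out), Ccr4 (−2.25 to 0.13 with 1 left out), Icos (0.23 with limma-voom, −0.67 to 0.35 with 1 left out), Tbx21 (0.20 with limma-voom, 0.039 with the block, 0.37 without both, −0.27 to 0.35 with 1 left out), Il2ra (−1.30 to 0.041 with 1 left out), Il2rb (−0.37 to 0.058 with 1 left out) and Ikzf2 (0.071 with limma-voom, 0.0067 with no filter, 0.036 without both, −0.12 to 0.12 with 1 left out). With 1 tumor left out, all of these were positive without sgCon tumor 3, and Ikzf2 also without sgTaz tumor 2. The cause was not tested. Both groups carry the numbers 1 to 5, but deviations of tumors with the same number correlated at −0.15, −0.24, −0.05, 0.09 and 0.22, so the numbers were not read as pairs. With the replicate block the ratios stayed −0.92 (Cd4), 0.78 (Cd8a), 0.64 (Il2ra), −1.84 (Lef1) and −0.76 (Il7r) and all missed the threshold, because the smallest p of 5 pairs is 0.0625. Trat1, Cd28, Ccr4, Ccr6, Icos, Cd40lg and Ccr8 had under 10 counts in some tumors, so depth limits their values.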
